A study of Saccharomyces cerevisiae with 6 samples.

Results

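Permeases that carry amino acids across the yeast plasma membrane were followed in cultures with and without ethanol: AGP1, GNP1, BAP2, BAP3, TAT1, MUP1, GAP1, CAN1, LYP1 and DIP5. These 10 genes were chosen by symbol from the array's annotation, and all 10 were measured, each by 1 probe, among 6345 features. Both groups used Saccharomyces cerevisiae W303-1A, a haploid strain of mating type a kept for laboratory work, whose labelled markers are leu2-3, 122 and trp1-1, then can1-100, ura 3-1 and ade2-1, and last his3-11, 15. Cells from an unstressed parent culture late in exponential growth were put into 3 cultures with no added ethanol and 3 with 6.5% (v/v) ethanol, all in YEPD, a rich medium of glucose, bactopeptone and yeast extract, at 30 °C. Each culture had 1 two-colour array, on which its RNA was set against pooled RNA from the 3 unstressed cultures. How long cells stayed in ethanol is not stated in the labels, and ratios to a pool show no absolute level, so the labelled strain could not be checked from marker genes.

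Yeast takes up amino acids through a family of related proteins that span the plasma membrane and use the proton gradient. Some are specific, such as Mup1 for methionine, Lyp1 for lysine and Can1 for arginine, and others, such as Agp1 and Gap1, accept many substrates. Dip5 carries glutamate and aspartate. Amino acids outside the cell are sensed by Ssy1, a permease-like protein that with Ptr3 and Ssy5 forms the SPS sensor. The sensor releases the transcription factors Stp1 and Stp2, which activate permease genes that include AGP1, GNP1, BAP2, BAP3 and TAT1. GAP1 is instead under nitrogen catabolite repression, the control that keeps genes for poor nitrogen sources low while good ones last. New permeases leave the endoplasmic reticulum with the help of Shr3, and the ubiquitin ligase Rsp5 marks them for removal from the membrane. The strain's leu2, trp1 and his3 markers make it dependent on imported leucine, tryptophan and histidine, and can1-100 is a nonsense allele, so CAN1 readings here are of the transcript of a mutated gene.

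Each value is the log2 of the ratio between culture and pool. A change is the mean of the 6.5% arrays minus the mean of the 0% arrays, with a standard error (SE) that limma gave from n = 3 arrays per group, and a gene was called when its p-value, adjusted over all features by the Benjamini-Hochberg method, was below 0.05. Directions rest on reading each deposited ratio as red divided by green, which is likely but nowhere stated. Read this way, the stress genes HSP12 and HSP26 were higher with ethanol, and read the other way every direction below would turn. Culture 1 of each group was dye-swapped, and its array stood apart from the others. After the swap was undone, the array of 0% culture 1 correlated with those of 0% cultures 2 and 3 at r = −0.38 and −0.44 across probes, against 0.67 between the latter. For the 6.5% arrays the same values were −0.06, −0.10 and 0.85, and across probes none of these is a correlation over replicates. Dye orientation was therefore kept as a term in the fit, and changes are also given for each orientation. The deposited ratios also carry a trend along the probe number. Values with that trend removed are given for each of the permeases, and for related genes where they change a call.

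Ethanol was accompanied by a higher DIP5 transcript and a lower MUP1 transcript, while most of the 10 permeases showed no called change. Of the 10 genes, 2 rose (DIP5 and BAP2), 1 fell (MUP1) and 7 were not called. Over all features 18.1% were called, 7.69% higher and 10.4% lower. The 10 changes ran from −1.52 to 1.89 with a median of 0.13, against a median of 0.04 over all features, and 5 of the 10 lay below 0, against 48.0% of features. The 10 changes did not share a direction.

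DIP5, a permease for glutamate and aspartate, had log2 ratios of 0.13, 0.71 and 0.89 in 0% cultures 1, 2 and 3 and of 2.02, 2.82 and 2.57 in 6.5% cultures 1, 2 and 3. Every ethanol array read above every array without ethanol. DIP5 rose by 1.89 ± 0.24 on the log2 scale, or 3.71-fold (95% interval of the log2 change 1.32 to 2.47, limma adjusted p = 0.00803). The change was 1.89 on the swapped arrays and 1.89 on the others, so that both orientations gave the same size. With the probe-order trend removed it was 2.31 ± 0.25 (adjusted p = 0.00855). Of all features 1.94% rose by more than DIP5. The call was lost without 6.5% culture 2 (1.82, adjusted p = 0.0606) and without 6.5% culture 3 (1.96, adjusted p = 0.0546), although the size hardly moved.

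MUP1, the high-affinity methionine permease, read 0.15, −0.01 and 0.49 in 0% cultures 1, 2 and 3. In 6.5% cultures 1, 2 and 3 it read −0.65, −1.50 and −1.77, all below the 0% arrays. MUP1 fell by 1.52 ± 0.33, or 2.86-fold (95% interval −2.29 to −0.74, limma adjusted p = 0.0258). The size depended on the orientation, with −0.80 on the swapped arrays and −1.87 on the others. With the trend removed it was −1.57 ± 0.32 (adjusted p = 0.0258). With culture number as a replicate block, MUP1 was not called (adjusted p = 0.0568), nor without culture 2 or 3 of either group, where adjusted p-values were 0.0607 to 0.119 and changes −1.27 to −1.56.

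BAP2, the main permease of the branched-chain amino acids leucine, isoleucine and valine, read 0.15, −0.52 and −0.05 in 0% cultures 1, 2 and 3 and 0.81, 1.02 and 1.09 in the ethanol cultures. The groups did not overlap in the values as deposited. BAP2 rose by 1.11 ± 0.28, or 2.16-fold (95% interval 0.44 to 1.79, limma adjusted p = 0.0387), with 0.66 on the swapped arrays and 1.34 on the others. This call was the least steady of the called genes. With the trend removed the change was 0.62 ± 0.36 (95% interval −0.23 to 1.46, adjusted p = 0.279), and the ethanol array of culture 1 then read −0.52, below all 0% arrays, against 1.56 and 1.60 for cultures 2 and 3. With the replicate block the adjusted p was 0.0744, and without culture 2 or 3 of either group it was 0.0695 to 0.168.

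**Figure D1:**
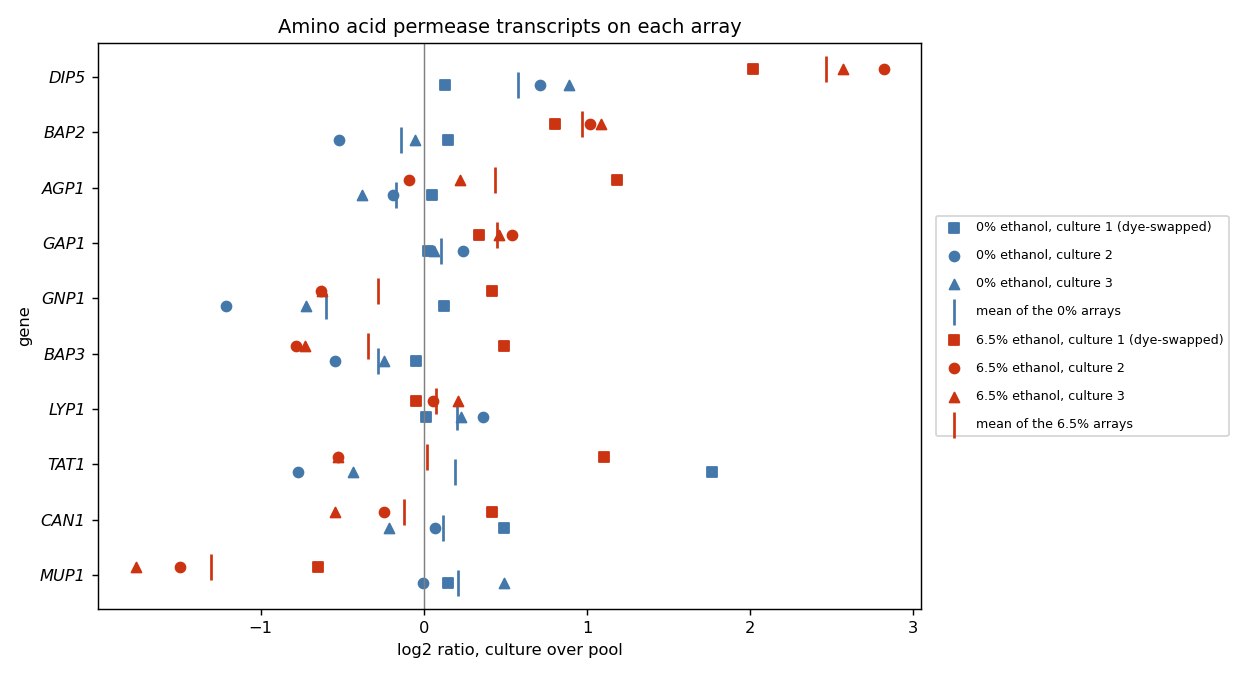
Log2 ratio of culture over pool (x axis) for each permease gene (y axis, ordered by change), with 1 point per array, blue for 0% and red for 6.5% ethanol, and a vertical tick for each group's mean. Red and blue points do not overlap for DIP5, BAP2, GAP1 and MUP1, and the 2 square points of the dye-swapped arrays lie far to the right for TAT1.

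Besides BAP2, the targets of Stp1 and Stp2 named above were not called. Those named are not a full list, and whether the called genes DIP5 and MUP1 are also targets was not examined. AGP1, a permease of broad specificity, read 0.05, −0.19 and −0.38 in 0% cultures 1, 2 and 3 and 1.19, −0.09 and 0.22 in the ethanol cultures, so that culture 1 was high and the groups overlapped. Its change was 0.61 ± 0.28 (95% interval −0.06 to 1.29, adjusted p = 0.175), made up of 1.14 on the swapped arrays and 0.35 on the others, and it was 0.15 with the trend removed. GNP1, a glutamine permease closely related to Agp1, read 0.13, −1.21 and −0.72 without ethanol and 0.42, −0.63 and −0.62 with it. Cultures 2 and 3 of both groups lay below 0 and culture 1 of both above it, and the change was 0.32 ± 0.26 (95% interval −0.29 to 0.93, adjusted p = 0.404). Without the probe-order trend GNP1 was at 0.03 ± 0.26 (adjusted p = 0.951).

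BAP3, the close relative of Bap2, which carries branched-chain and aromatic amino acids and cysteine, read −0.05, −0.55 and −0.25 without ethanol and 0.49, −0.78 and −0.73 with it. The orientations pointed in opposite directions, at 0.54 on the swapped arrays and −0.36 on the others, and the change over all arrays was −0.06 ± 0.29 (95% interval −0.75 to 0.63, adjusted p = 0.905). Without the probe-order trend BAP3 was at −0.46 ± 0.25 (adjusted p = 0.258). TAT1, which carries tyrosine, tryptophan and branched-chain amino acids, read 1.77, −0.77 and −0.43 without ethanol and 1.10, −0.53 and −0.53 with it. Both swapped arrays were high and the 4 others were low, whatever the ethanol. The difference of the 4 other arrays minus the swapped ones was −2.00 for TAT1 (limma adjusted p of the dye term 0.00561) and −1.07 for GNP1 (0.0256), the only 2 of the 10 genes with a called dye term, against 34.0% of all features. The change of TAT1 with ethanol was −0.17 ± 0.28 (95% interval −0.83 to 0.49, adjusted p = 0.70), at −0.66 on the swapped arrays and 0.08 on the others. Without the probe-order trend TAT1 was at −0.67 ± 0.36 (adjusted p = 0.248). In 0% culture 1 TAT1 read 1.77 above a pool that held RNA of that same culture. The SD of TAT1 over the 0% arrays was 1.38, against a median of 0.54 over all features.

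GAP1, the general amino acid permease, read 0.02, 0.24 and 0.06 without ethanol and 0.34, 0.54 and 0.46 with it. All ethanol arrays lay above all 0% arrays, but the change was small, at 0.34 ± 0.24 or 1.26-fold (95% interval −0.22 to 0.90, adjusted p = 0.345). It was 0.31 on the swapped and 0.35 on the other arrays, and removing the trend gave 0.45 (adjusted p = 0.242). GAP1, DIP5 and BAP2 were, as deposited, the 3 of 10 genes whose ethanol arrays all lay above the 0% arrays, as in 11.3% of all features, and MUP1 was the 1 whose ethanol arrays all lay below, as in 14.0%.

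As deposited, the carriers of basic amino acids were among the genes with the smallest changes. CAN1, the arginine permease, read 0.49, 0.07 and −0.21 without ethanol and 0.42, −0.25 and −0.54 with it, with overlap between the groups. Its change was −0.24 ± 0.25 (95% interval −0.84 to 0.36, adjusted p = 0.540). With the trend removed it was −0.50 ± 0.25 (adjusted p = 0.224), and the groups no longer overlapped. LYP1, the lysine permease, read 0.01, 0.36 and 0.23 without ethanol and −0.05, 0.06 and 0.21 with it. Its change was −0.13 ± 0.24 as deposited (95% interval −0.69 to 0.44, adjusted p = 0.736) and 0.19 ± 0.24 with the trend removed, so that its sign was not settled. The ends of the interval as deposited correspond to a fall of 1.62-fold and a rise of 1.35-fold for LYP1, and to 1.79-fold and 1.29-fold for CAN1.

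**Figure D2:**
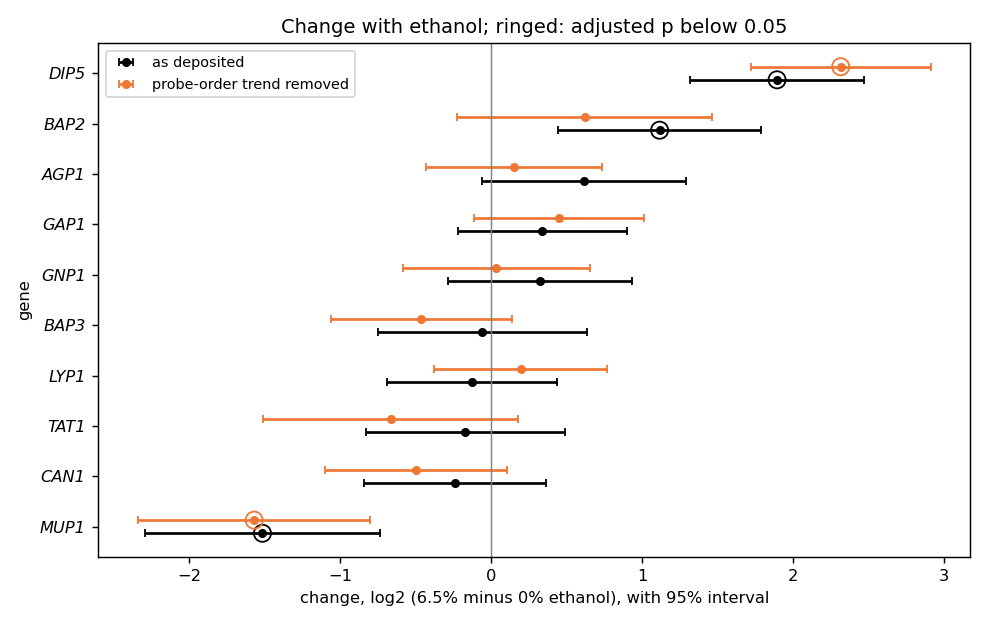
Change with ethanol (x axis, log2, 6.5% minus 0%) with its 95% interval for each permease gene (y axis), in black as deposited and in orange with the probe-order trend removed; rings mark adjusted p below 0.05. DIP5 and MUP1 are ringed in both, at 1.89 and 2.31 and at −1.52 and −1.57, and BAP2 only as deposited.

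In the order of the changes, DIP5 came first, followed by BAP2, AGP1, GAP1, GNP1, BAP3, LYP1, TAT1, CAN1 and MUP1. The 95% intervals of the 7 genes between BAP2 and MUP1 all overlapped each other and included 0. The interval of DIP5 overlapped that of BAP2, and the interval of MUP1 overlapped those of CAN1, TAT1 and BAP3 but not those of LYP1 or of the genes from DIP5 to GNP1.

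Related or neighbouring genes were compared with each other on the same arrays in 4 pairs, by the difference of their log2 ratios on each array. These pairs were chosen with the values known. With 3 arrays against 3, the exact permutation test (two-sided) cannot go below p = 0.10, so none could pass. The test also permuted the arrays without regard to dye orientation, so differences between orientations enter its p-values. BAP2 minus BAP3 read 0.19, 0.03 and 0.19 in 0% cultures 1, 2 and 3 and 0.32, 1.80 and 1.82 in the ethanol cultures. As deposited, the ratio between these relatives was higher on every ethanol array, by 1.17 on average (exact permutation p = 0.10, 0.40 adjusted over the 4 pairs). The difference was 0.12 on the swapped arrays and 1.70 on the others. With the trend removed the average was 1.08, but in 6.5% culture 1 BAP2 read −0.52 and BAP3 −0.45. The ratio was then no longer higher on every ethanol array. BAP2 and TAT1 are neighbours on the chromosome in RefSeq R64 and their probes have consecutive numbers, 301 and 302, so that the probe-order trend is nearly the same for both. BAP2 minus TAT1 was higher with ethanol by 1.32 on the swapped arrays and by 1.27 on the others, and by 1.29 over all arrays with or without the trend (exact permutation p = 0.30, 0.60 adjusted). The relative change of these neighbours was thus alike in both orientations, although neither gene alone was. BAP2 minus TAT1 read −1.62, 0.25 and 0.38 in 0% cultures 1, 2 and 3 and −0.30, 1.55 and 1.61 with ethanol. The groups thus overlapped, and the swapped value rests on 1 array per group. AGP1 minus GNP1 differed between the groups by 0.29 (exact permutation p = 0.50) and CAN1 minus LYP1 by −0.11 (exact permutation p = 0.70), with adjusted values of 0.67 and 0.70. Probe sequences were not used here, and signal shared between related genes was not tested.

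**Figure D3:**
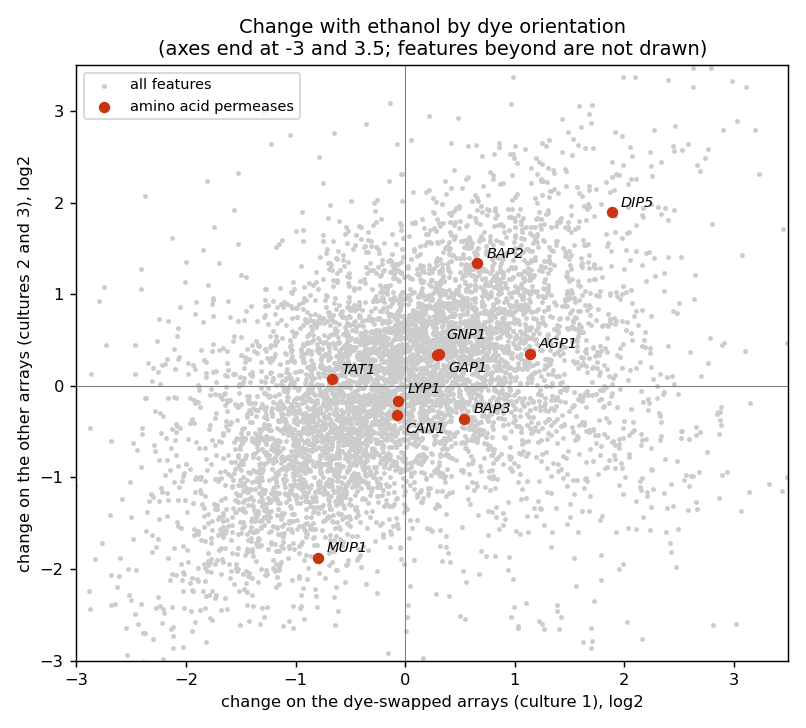
Change with ethanol on the dye-swapped arrays (x axis, log2, culture 1) against that on the other arrays (y axis, log2, cultures 2 and 3) for all features (grey; 81 lie beyond the axes) and the 10 permease genes (red). DIP5 lies at 1.89 on both axes, MUP1 at −0.80 and −1.87, and BAP3 and TAT1 have opposite signs on the 2 axes.

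The position of the probes along the array's numbering bears on these values. Among the 10 genes the probe numbers follow the order of the chromosomes, from II for BAP2 and TAT1 to XVI for DIP5. Whether the trend belongs to the array or to the genome was not tested. The probes of BAP2, TAT1, AGP1, BAP3, GNP1 and CAN1 all lie in the first 24.8% of the probe order, and removing the trend lowered their changes by 0.26 to 0.49. LYP1 and DIP5 lie at 78.7% and 94.2%, and their changes became larger by 0.32 and 0.42. MUP1 and GAP1 lie between, and moved by −0.06 and 0.11. With the trend removed 1 of the 10 genes rose and 1 fell, where 5.74% of all features rose and 7.50% fell. BAP3, TAT1, CAN1 and MUP1 then had all ethanol arrays below the 0% arrays, as in 15.1% of features, though for TAT1 the highest ethanol array and the lowest 0% array were tied at 0.01 to the precision given here, and DIP5 and GAP1 all above, as in 11.8%.

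By the smallest root mean square difference over the 6 arrays, the named genes whose log2 ratios were most like those of DIP5 were DDR2, a stress-induced gene, at 0.20, FMS1, a polyamine oxidase, at 0.27, and ARG4, argininosuccinate lyase of arginine synthesis, at 0.35. Those most like MUP1 were RPE1, an epimerase of the pentose phosphate pathway, at 0.19, LHP1, an RNA-binding protein of tRNA maturation, at 0.22, and RPL4B, which codes for a large-subunit ribosomal protein, at 0.22.

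Other permeases of the same superfamily gave 3 called decreases and no called increase by limma among 13 genes, with a median change of −0.16. Over all features 10.4% fell and 7.69% rose, and these shares stand beside the counts of this list and of each list below. At an unadjusted p below 0.05 there was 1 increase, AGP2 at 0.70 (unadjusted p = 0.0234). TAT2, the high-affinity tryptophan permease, read 0.66, −0.17 and −0.18 in 0% cultures 1, 2 and 3 and −1.11, −0.92 and −1.14 with ethanol. TAT2 fell by 1.16 ± 0.29 (limma adjusted p = 0.0365, 0.0755 with the replicate block and 0.0905 with the trend removed), and the groups did not overlap. MMP1, which imports S-methylmethionine, fell by 1.76 ± 0.34 (adjusted p = 0.0190), and SAM3, its relative for S-adenosylmethionine, fell by 2.73 ± 0.40 (adjusted p = 0.0101). Both kept their calls with the trend removed, at −1.62 and −2.31. MUP3, a low-affinity methionine permease named after its values were seen, was at −0.79 ± 0.26 and was not called, with ethanol arrays all below the 0% arrays. HIP1, the histidine permease, was at −0.05 ± 0.28, and ALP1, a basic amino acid permease similar to Can1, at −0.46 ± 0.30, neither called and both with a called dye term.

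Among 13 genes of the SPS sensor pathway 1 rose and 1 fell, with a median change of 0.00. SSY1, the sensor itself, read −0.02, −0.87 and −0.62 without ethanol and 1.05, 0.21 and 0.19 with it, with no overlap. SSY1 rose by 0.99 ± 0.24 (limma adjusted p = 0.0346, 0.0757 with the replicate block), and was at 0.61 with the trend removed (adjusted p = 0.143). YCK2, a casein kinase at the plasma membrane that acts in the pathway, fell by 1.08 ± 0.27 (adjusted p = 0.0369, 0.0752 with the block and 0.0924 with the trend removed). STP1 and STP2 were at 0.29 ± 0.26 and 0.69 ± 0.31 and were not called (adjusted p = 0.472 and 0.169). PTR3 was at 1.54 ± 1.00 (adjusted p = 0.314), but its 0% culture 1 read −4.61, at the value that 19 probes of that array share as its extreme, against 0.60 and 0.08 for the other 0% cultures. PTR2, the peptide transporter whose transcription the sensor also controls, was at −0.77 ± 0.25 (adjusted p = 0.0808), with all ethanol arrays below the 0% arrays.

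In the list of 14 regulators of nitrogen use and of general amino acid control, 1 rose and none fell by limma's test, with a median of 0.09 and no decrease at an unadjusted p below 0.05 either. DAL80, a GATA-type repressor of nitrogen catabolite genes that is itself under nitrogen catabolite repression, read −0.11, −0.60 and −0.40 without ethanol and 1.07, 1.17 and 1.29 with it. DAL80 rose by 1.55 ± 0.26 (limma adjusted p = 0.0134), and by 1.66 with the trend removed (adjusted p = 0.0118). The activators GLN3 and GAT1 were at 1.63 ± 0.52 (adjusted p = 0.0730) and −0.19 ± 0.26 (adjusted p = 0.646), and the GLN3 arrays of 0% culture 2 and 6.5% culture 1, at −2.88 and 1.99, lay far from the rest. GCN4, the activator of amino acid synthesis genes, which is controlled mainly through its translation, was at 0.15 ± 0.25 (adjusted p = 0.701).

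Of 13 genes for packaging and sorting of permeases 1 rose and 2 fell, with a median of −0.14. LTV1, which acts in small-subunit assembly and has been linked to Gap1 sorting, fell by 1.74 ± 0.24 (limma adjusted p = 0.00916), and SEC23, a coat protein of vesicles that leave the endoplasmic reticulum, by 1.47 ± 0.32 (adjusted p = 0.0252, 0.0606 with the trend removed). SLM4, a subunit of the vacuolar EGO complex, rose by 1.07 ± 0.25 (adjusted p = 0.0309, 0.0693 with the replicate block and 0.176 with the trend removed). SHR3, the permease packaging factor, was at −0.81 ± 0.30 as deposited (adjusted p = 0.109), and NPR1, the kinase that keeps Gap1 at the membrane, at 0.78 ± 0.24 (adjusted p = 0.0692). With the trend removed both were called, SHR3 at −1.23 (adjusted p = 0.0352) and NPR1 at 1.09 (adjusted p = 0.0333).

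Among 16 genes of Rsp5, its arrestin-type adaptors and other factors of permease removal, 1 rose and 1 fell, with a median of 0.13. ECM21, an arrestin-type adaptor, rose by 1.41 ± 0.26 (limma adjusted p = 0.0171, 0.0719 with the trend removed), and ART10, another adaptor, fell by 1.47 ± 0.35 (adjusted p = 0.0337, 0.0600 with the replicate block and 0.0603 with the trend removed). BUL1, which with Rsp5 acts on Gap1, was at 0.78 ± 0.27 and not called as deposited, but rose by 1.07 once the trend was removed (adjusted p = 0.0442). RSP5 was at −0.64 ± 0.26 (adjusted p = 0.133) and LDB19, the adaptor that acts on Can1 and Mup1, at −0.76 ± 0.30 (adjusted p = 0.126). Of 17 vacuolar amino acid transporters 2 rose, with a median of 0.07. RTC2, a transporter of basic amino acids also named YPQ3, rose by 1.67 ± 0.27 (adjusted p = 0.0122, 0.0635 with the trend removed), and VBA2, another, by 1.14 ± 0.25 (adjusted p = 0.0263, 0.0583 with the replicate block and 0.132 with the trend removed). None of the 17 fell by limma's test as deposited, where AVT1 at −0.82 and YPQ2 at −0.84 had an unadjusted p below 0.05, and YPQ2 fell by 1.17 once the trend was removed (limma adjusted p = 0.0402). Of the 86 genes in these 6 lists 13 were called, against 18.1% of all features, and no test of the lists against other genes was made. Of the 13 calls 7 held with the replicate block and 4 with the trend removed, the latter for MMP1, SAM3, DAL80 and LTV1. With 1 array left out in turn, 0 of the 13 were called in all 6 fits. The groups did not overlap as deposited for 9 of the 13, but overlapped for SEC23, SLM4, ART10 and VBA2. These overlapping genes, and ECM21 and RTC2, had a called dye term (limma adjusted p 0.00420 to 0.0328), as had 34.0% of all features.

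**Figure D4:**
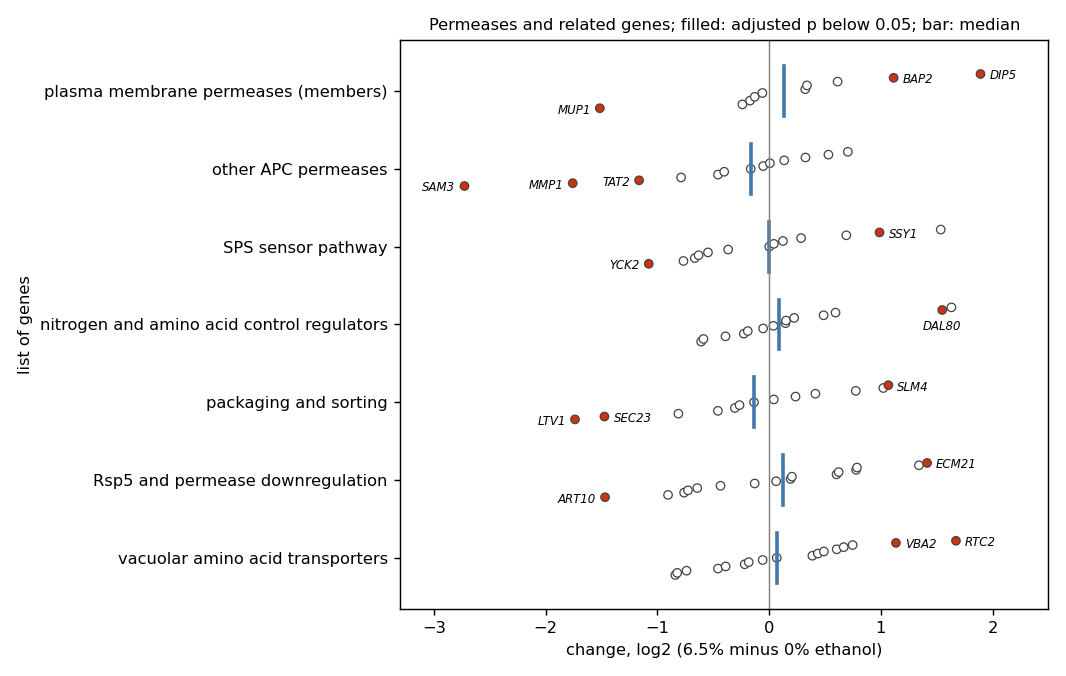
Change with ethanol (x axis, log2, 6.5% minus 0%) for each gene of the permease group and of 6 related lists (y axis), filled and named where adjusted p was below 0.05, with a blue bar at the list's median. The medians lie between −0.16 and 0.13, and SAM3 at −2.73 and DIP5 at 1.89 are the outermost points.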

How the data were processed

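The authors deposited 1 table of log2 ratios for 6368 probes on 6 two-colour arrays (dyes AlexaFluor 647 and 555 per the labels). Its scanner, background correction, normalization and filters are not stated in the labels. No intensity was used, so signal over background is unknown, and the number of arrays limits the precision. Values end at 6.64 on both sides. Ratios of the dye-swapped arrays were multiplied by −1. Gene names came from the platform annotation and were updated through RefSeq R64: 5673 probes had 1 gene, all matched by gene identifier, and 695 had none. Probes of a gene were averaged.

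The 6.5% arrays were compared with the 0% arrays over all features by limma 3.58.1 (lmFit and eBayes, R 4.3.3), in a model with dye orientation and 3 residual degrees of freedom. The trend along the probe number was removed with a loess of span 0.3 per array. The fit was tested on data simulated from its own model with independent noise. Such data cannot show how the probe-order trend, array scale or shared cultures act on the calls. Same-numbered cultures deviated together from their group means (r = 0.70, 0.48 and 0.43 across features), so values with culture number as a replicate block are given where they change a call. These numbers also carry the dye orientation: with it taken out, the difference between cultures 2 and 3 correlated at r = −0.04 between groups.

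The genes and lists were chosen with earlier results of these data known. Genes named were the 10 permeases, called genes of each related list (up to 3 per direction), 16 related genes whatever their values, and the 3 genes most like DIP5 and MUP1. AGP2, MUP3, AVT1, YPQ2 and BUL1 fall outside this rule and were named after their values were seen. HSP12 and HSP26, named only for the direction of the ratios, also fall outside it. The related lists cover other permeases, the SPS sensor, nitrogen and amino acid control, packaging and sorting, permease removal, vacuolar transporters and genes of mating type a or alpha. Promoter and protein sequences were not used here.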

Additional observations from a re-analysis of the deposited data

How the results depend on the processing

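The 10 genes were recomputed under 19 alternative settings, 2 of them (loess spans of 0.1 and 0.7) chosen after seeing the data. GAP1 kept its sign and had no call in any of them. DIP5, BAP2 and MUP1 kept their signs in all 19, at 1.5 to 2.46, 0.59 to 1.34 and −1.87 to −0.80. The 2 called increases became 1 with the replicate block, with the trend removed at spans 0.3, 0.1 and 0.7, with arrays scaled to an equal median absolute value and after quantile normalization, and 0 without the dye term. The 1 called decrease became 0 without the dye term, with the replicate block and with scaled arrays. The block changed no other call among the 10 genes. At an unadjusted p below 0.05 limma gave 2 increases and 1 decrease in these settings, but 1 increase with the trend removed. With 1 array left out there were 0 to 2 increases and 0 or 1 decrease, and none without 6.5% culture 2 or 3. Leaving out 1 swapped array leaves the other fitted by the dye term alone, so those fits equal the one without either. Over all features 1150 calls became 78 without the dye term, 607 with the replicate block, 301 with scaled arrays, 484 after quantile normalization, 2542 against the pool alone and 2 to 1253 with 1 array left out (2 without 6.5% culture 2, 51 without 6.5% culture 3, 485 without 0% culture 2 and 754 without 0% culture 3). AGP1 was called against the pool alone (adjusted p = 0.0282). Signs turned for uncalled genes: LYP1 to 0.19, 0.23 and 0.19 with the trend removed at spans 0.3, 0.1 and 0.7 and to 0.042 against the pool alone, which also gave −0.10 for GNP1, 0.29 for TAT1 and 0.0121 for CAN1. TAT1 was at 0.0753 without either swapped array and between −0.34 and 0.0753 with 1 array left out, and BAP3 between −0.36 and 0.11, with 0.54 on the swapped arrays alone. Over all settings TAT1 ran from −0.96, with scaled arrays, to 0.29 and BAP3 from −0.46, with the trend removed, to 0.54. The cause of these changes was not tested.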

Other observations

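Genes that mark the mating type of the strain lay outside the comparisons above. Of 5 genes expressed in cells of mating type a, 4 fell with ethanol, where 10.4% of all features fell: STE2, the receptor for alpha factor, at −3.07 ± 0.40, the alpha factor protease gene BAR1 at −3.27 ± 0.28, MFA1, a gene of a-factor, at −2.53 ± 0.27, and MFA2, its other gene, at −1.06 ± 0.26 (limma adjusted p between 0.00499 and 0.0359). MFA2 lost its call once the trend was removed (adjusted p = 0.0971), with the replicate block (adjusted p = 0.0738) and in every fit with 1 array left out. Of these 6 fits, STE2 was called in 4, and MFA1 and BAR1 in 5 each. AGA2, a subunit of the a-agglutinin, was at −0.13 ± 0.29. None of the 4 genes of alpha cells (STE3, SAG1, MF(ALPHA)1 and MF(ALPHA)2) was called by limma, with changes from −0.91 to 1.21, and 1 of them, MF(ALPHA)2, had an unadjusted p below 0.05, at 0.0456.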
